A study of Mus musculus with 14 samples.

Results

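Ovaries of mice that lack the RNA-binding protein ZFP36L2 were compared with wild-type ovaries by sequencing of polyadenylated RNA. The comparison used 6 of the 14 libraries of the study, 3 from L2-fKO females (the genotype labelled L2-cKO) and 3 from wild-type females, each library from the ovary of a mouse with its own animal number. L2-fKO animals carried *Zfp36l2* alleles in which exon 2 had been flanked by loxP sites and then removed, together with a CMV-*Cre* transgene. The CMV promoter is not restricted to a cell type, so that oocytes and somatic cells were both targets of Cre. The wild-type controls had both intact *Zfp36l2* copies and also carried CMV-*Cre*, so the transgene was shared by both groups. Ovary ages are not given in the labels. The paper describes the ovary donors as age-matched, and calls the L2-fKO ovary of its histology neonatal. It also states that L2-fKO pups, apart from a single female, died before their second week. L2-fKO ovary 1 came from the same animal as a spleen library that was not used here. Of the 18603 genes in the ovary table, the 18547 with at least 10 reads in at least 3 of the 6 libraries were tested, and 56 were not. At that limit, 75 tested genes had exactly 10 reads in the library that decided it and 24 untested genes had 9. Values are normalized reads, which the authors obtained by dividing read counts by a size factor for each library.

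As background, ZFP36L2 belongs to a small family of zinc finger proteins, with ZFP36 (tristetraprolin) and ZFP36L1, that bind AU-rich elements in the 3′UTR of mRNAs and recruit the deadenylation and decay machinery, so that bound transcripts are shortened and degraded. The preferred element is UAUUUAU, and AUUUA is its shorter core. In the growing oocyte, mRNAs are stored, translated and cleared on a schedule set by proteins of this kind, while granulosa and theca cells around the oocyte supply hormones and signals through the Notch, TGF-β and hedgehog pathways.

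The libraries held 31052510 to 44270070 recovered reads. All 6 expressed the markers that define ovary: *Foxl2*, the transcription factor that maintains granulosa cells, lay between 4406 and 6795 normalized reads, and *Zp3*, a protein of the egg coat, between 26296 and 30840.5. L2-fKO ovary 2 stood apart from the other 5. Its score on the first principal component, which held 47.2% of the variance, was 65.8, whereas the other libraries lay between -43.4 and 9.71. In this ovary the 31 measured genes of meiotic prophase summed to 61637 normalized reads. Their sums were 32012 and 31444 in L2-fKO ovaries 1 and 3 and 25234 to 29677 in wild-type ovaries. Granulosa genes in L2-fKO ovary 2 summed to 170783, against 256096 to 285411 in the other 5. The steroidogenic enzyme gene *Cyp17a1* had 1628, 364 and 293 in wild-type and 1206, 48.3 and 1992 in L2-fKO ovaries, so that L2-fKO ovary 2 was lowest, and wild-type ovary 1 lay with L2-fKO ovaries 1 and 3. *Ihh*, a hedgehog ligand made by granulosa cells, had 1494, 871 and 742 in wild-type and 1334, 93.5 and 1413 in L2-fKO ovaries. The median SD of log2 values across genes was 0.20 among L2-fKO and 0.11 among wild-type ovaries, and 0.12 among the L2-fKO ovaries without L2-fKO ovary 2. The genes named here were chosen after their values were seen. This library was kept in the test, and for the gene lists the count passed in limma or the median without it is given beside that with all 6 ovaries where it differs. In whole ovaries, fewer cells of a type and less RNA per cell cannot be told apart.

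**Figure D1:**
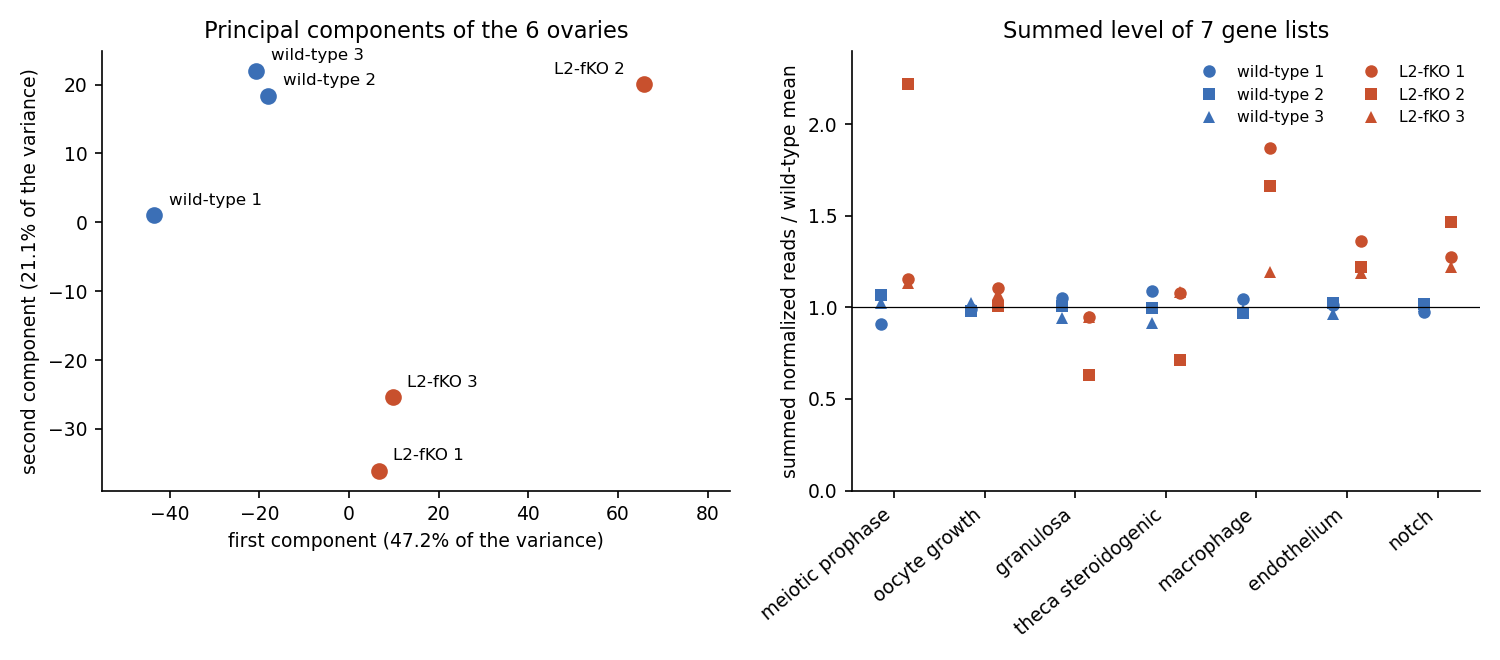
Left, scores of the 6 ovaries on the first 2 principal components of log2 normalized reads; right, normalized reads summed over 7 gene lists, divided by the wild-type mean, with 1 symbol per ovary. L2-fKO ovary 2 lies at 65.8 on the first component, and its meiotic prophase sum is the highest and its granulosa sum the lowest of the 6. The meiotic prophase, macrophage, endothelium and Notch sums of all 3 L2-fKO ovaries lie above those of all wild-type ovaries.

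The targeted gene was lower in every L2-fKO ovary. *Zfp36l2* (chr17:84183931-84187947 in GRCm38, minus strand) had 4868, 4906 and 4745 normalized reads in the wild-type ovaries and 758, 1011 and 1009 in the L2-fKO ovaries, which left 19.1% of the wild-type mean (log2 fold change -2.40 ± 0.12, adjusted p = 0.000580; ± gives the SE of the fold change here and below). Where a gene is given only a value with ± and an adjusted p, that value is its log2 fold change (L2-fKO minus wild-type). The gene-level value also counts reads from outside the removed exon, so it does not measure the deletion by itself. The related genes *Zfp36* and *Zfp36l1* were higher in all 3 L2-fKO ovaries without passing the test: *Zfp36* had 327, 348 and 318 in wild-type and 491, 438 and 532 in L2-fKO ovaries (log2 fold change 0.55 ± 0.12, adjusted p = 0.0731), and *Zfp36l1* had 5182, 5797 and 5050.0 in wild-type and 6357, 7028 and 6366 in L2-fKO ovaries (log2 fold change 0.30 ± 0.079, adjusted p = 0.123). Without L2-fKO ovary 2 *Zfp36* passed (log2 fold change 0.63, adjusted p = 0.0372). *Elavl2*, a neuronal and oocyte RNA-binding protein that stabilizes AU-rich mRNAs, had 3840.3, 4289 and 4088 in wild-type and 5298, 7753 and 4685 in L2-fKO ovaries. All 3 L2-fKO values of *Elavl2* exceeded the wild-type values, and its difference did not pass the test (log2 fold change 0.50 ± 0.17, adjusted p = 0.208). The widely expressed *Elavl1* overlapped between genotypes (log2 fold change 0.04 ± 0.078, adjusted p = 0.851; -0.02 without L2-fKO ovary 3). *Lhcgr*, the luteinizing hormone receptor, spread over 589, 475 and 217 in wild-type and 506, 124 and 711 in L2-fKO ovaries, and its direction was not fixed: the log2 fold change was -0.14 ± 0.65 with all 6 ovaries and 0.61 without L2-fKO ovary 2. Of the 14 measured RNA-binding proteins of the ZFP36, ELAVL and related families, *Zfp36l2* was the only gene that passed in limma with all 6 ovaries. An unadjusted p below 0.05 was found for 4 of the 14 (beside 16.8% of all tested genes), and 3 passed in DESeq2 (beside 6.02%). *Zfp36* and *Zfp36l1* passed in DESeq2 (adjusted p = 0.00312 and 0.0448). The list median was 0.01 with all 6 ovaries and 0.06 without L2-fKO ovary 2.

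Across the transcriptome, 227 genes were upregulated and 65 downregulated in L2-fKO ovaries at an adjusted p below 0.05 (limma), which is 1.22% and 0.35% of the genes tested. With the further limit of a log2 fold change above 1 or below -1, 135 (0.728%) were upregulated and 42 (0.226%) downregulated. The 3 values of each genotype did not overlap for any of these 292 genes, whereas 13.1% and 12% of all tested genes had all L2-fKO values above or below all wild-type values. All 292 also passed edgeR's quasi-likelihood test on the recovered reads, in the same direction. The median log2 fold change was 1.19 among the upregulated and -1.25 among the downregulated genes, and -0.0039 over all genes. L2-fKO ovary 2 had the highest value of the 3 L2-fKO ovaries for 159 of the 227 upregulated genes and the lowest for 41 of the 65 downregulated genes. Without that ovary, 276 genes were upregulated and 136 downregulated (1.51% and 0.742% of the genes then tested), and these included 197 of the 227 and 63 of the 65. Leaving out a wild-type ovary had the larger effect: without wild-type ovary 1, 2 or 3 the upregulated genes numbered 41, 28 and 37, and the downregulated genes 4, 3 and 4. Without L2-fKO ovary 1 they numbered 107 and 54, and without L2-fKO ovary 3, 137 and 27. A total of 27 upregulated and 3 downregulated genes passed in all 6 of these fits.

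**Figure D2:**
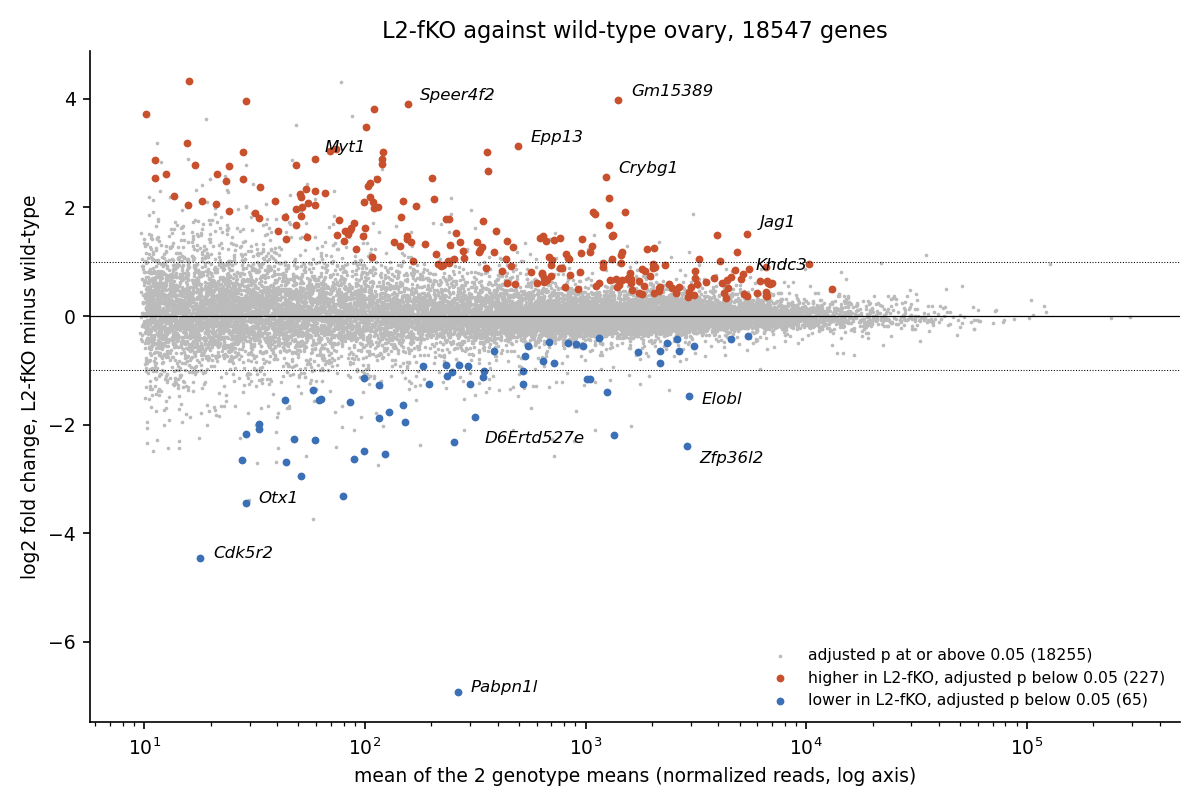
Log2 fold change of 18547 genes against the mean of the 2 genotype means in normalized reads, with colored points for adjusted p below 0.05 and dotted lines at a log2 fold change of 1 and -1. The 227 upregulated genes outnumber the 65 downregulated genes, and *Pabpn1l* lies lowest at -6.92.

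The upregulated genes with the smallest p-values included a Notch ligand, a calcium pump and other membrane or vesicle proteins. *Jag1*, the Notch ligand, rose from 2623, 2926 and 2829 normalized reads in wild-type ovaries to 8618, 8174 and 7247 in L2-fKO ovaries (log2 fold change 1.52 ± 0.085, adjusted p = 0.000635). The means were 2793 ± 155 in wild-type and 8013 ± 699.6 in L2-fKO ovaries (mean ± SD, n = 3 each). *Crybg1*, which encodes a protein of the crystallin superfamily, had 316, 389 and 356 in wild-type and 2139, 2454 and 1737 in L2-fKO ovaries (log2 fold change 2.56 ± 0.14, adjusted p = 0.000635). *Atp2b3*, a plasma membrane calcium ATPase, had 103, 106 and 83.5 in wild-type and 595, 698 and 593 in L2-fKO ovaries (log2 fold change 2.68 ± 0.15, adjusted p = 0.000635). For these 3 genes every L2-fKO value was above the highest wild-type value, as for every upregulated gene that passed. *Mb21d2* had 1246, 1187 and 1207 in wild-type and 2859, 2888 and 2903 in L2-fKO ovaries (log2 fold change 1.25 ± 0.063, adjusted p = 0.000580). *Extl1*, a glycosyltransferase of heparan sulfate synthesis, had 429.5, 481 and 428 in wild-type and 1456, 1915 and 1746 in L2-fKO ovaries (log2 fold change 1.92 ± 0.12, adjusted p = 0.00110), and *Trpv3*, a cation channel opened by warmth, had 192, 208 and 189.9 in wild-type and 581, 643 and 539.8 in L2-fKO ovaries (log2 fold change 1.57 ± 0.12, adjusted p = 0.00261). The other increases among the 10 with the smallest p-values were *Epp13*, *Speer4f2*, *Gm7104* and *Gm15915*. All 10 kept an adjusted p below 0.05 with any 1 of the 6 ovaries left out.

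Of these mRNAs, those of *Mb21d2*, *Jag1* and *Trpv3* carry the UAUUUAU element in the longest 3′UTR that GENCODE annotates for them. Among genes with a 3′UTR, the element was present in 34.8% of all upregulated genes and in 29.2% of those that did not pass. The first element of each of the 6 upregulated genes with the smallest p-values that hold it is printed as RNA, 5′ to 3′, with the element in capitals and the flanking 3′UTR in lower case; coordinates are those of the element in GRCm38.
Mb21d2, chr16:28826703-28826709 (- strand): gggugucuuugUAUUUAUuucuuugaggg
Jag1, chr2:137082675-137082681 (- strand): gaucauaguuuUAUUUAUauuuauugacu
Trpv3, chr11:73300350-73300356 (+ strand): uuuccaauaaaUAUUUAUuuuguca
Rab3a, chr8:70758140-70758146 (+ strand): cccgacuacccUAUUUAUuauuguagcua
Atp8a2, chr14:59644237-59644243 (- strand): uccuucuguggUAUUUAUuccuuccaucu
Il1r1, chr1:40314939-40314945 (+ strand): uucacuguuggUAUUUAUagcaccuaccu
The 3′UTR of *Jag1* (1568 nt) held 5 copies, of which the first began at position 343 and ended on the base with which the next copy began, and that of *Rab3a* (589 nt), a GTPase of vesicle exocytosis, held 4. *Mb21d2* and *Trpv3* held 1 each, the latter at position 3150 of 3163, and *Atp8a2*, a phospholipid flippase, and *Il1r1*, the interleukin-1 receptor, held 2 each. *Crybg1*, *Atp2b3*, *Extl1*, *Epp13* and *Speer4f2* held none.

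The largest increases among named genes were mostly from low wild-type levels. *AF366264* had 2.43, 2.51 and 2.75 in wild-type and 67.1, 49.3 and 48.97 in L2-fKO ovaries; its reads numbered 8 in the wild-type and 166 in the L2-fKO libraries together, a ratio of 21.7 after scaling (95% exact interval 10.8 to 51.1, for counting error only; adjusted p = 0.00299). *Speer4f2*, of a testis-expressed multicopy family, had 18.3, 15.04 and 22.02 in wild-type and 229, 396 and 256 in L2-fKO ovaries (log2 fold change 3.90 ± 0.27, adjusted p = 0.00182). *Epp13* rose 8.69-fold in the mean, with 129, 78.5 and 97.3 in wild-type and 791, 1062 and 795 in L2-fKO ovaries (log2 fold change 3.12 ± 0.21, adjusted p = 0.00179). A lack of overlap between genotypes was part of the rule that chose the genes of this group. *Ptpn20*, a tyrosine phosphatase, had 7.30, 14.2 and 23.9 in wild-type and 116, 209.6 and 74.02 in L2-fKO ovaries (log2 fold change 3.07 ± 0.50, adjusted p = 0.0335). *Myt1*, a zinc finger transcription factor known from neural tissue, had 26.8, 22.6 and 21.1 in wild-type and 133, 368 and 154 in L2-fKO ovaries (log2 fold change 3.02 ± 0.38, adjusted p = 0.0153), with L2-fKO ovary 2 highest. The proton channel gene *Otop3* had 3.65, 9.19 and 3.67 in wild-type and 39.3, 76.04 and 36.4 in L2-fKO ovaries (log2 fold change 3.01 ± 0.46, adjusted p = 0.0267). *Bglap3*, a member of the osteocalcin family, had 21.9, 37.6 and 24.8 in wild-type and 199, 225 and 206 in L2-fKO ovaries (log2 fold change 2.89 ± 0.24, adjusted p = 0.00400), and the sulfotransferase gene *Sult2a4* had 47.5, 70.2 and 57.8 in wild-type and 368, 372 and 293 in L2-fKO ovaries (log2 fold change 2.55 ± 0.20, adjusted p = 0.00299). *Gpr174*, a receptor for lysophosphatidylserine, had 31.6, 45.96 and 20.2 in wild-type and 168, 287 and 125 in L2-fKO ovaries (log2 fold change 2.52 ± 0.39, adjusted p = 0.0282), and its 3′UTR held 5 copies of UAUUUAU, against 6 in *Myt1* and none in *Speer4f2*, *Epp13*, *Bglap3* and *Sult2a4*.

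The remaining genes of this group were *Ear-ps3*, a pseudogene of the eosinophil-associated ribonuclease family (3.04 ± 0.33, adjusted p = 0.00829), *Dcpp3* (2.80 ± 0.33, adjusted p = 0.0120), the adhesion molecule gene *Ceacam2* (2.44 ± 0.40, adjusted p = 0.0335) and *Adamts18*, a secreted metalloprotease (2.38 ± 0.28, adjusted p = 0.0113), each given as the log2 fold change. *Speer4f2*, *Ear-ps3*, *Dcpp3*, *Sult2a4* and *Ceacam2* have near-identical relatives in the mouse genome, and which copy their reads came from is uncertain. Of the 15 largest increases, 7 passed with each of the 6 ovaries left out; 8, 8 and 9 passed without wild-type ovary 1, 2 and 3, and 10, 14 and 11 without L2-fKO ovary 1, 2 and 3. *AF366264* could not be tested without an L2-fKO ovary, because it then had 10 reads in only 2 libraries.

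**Figure D3:**
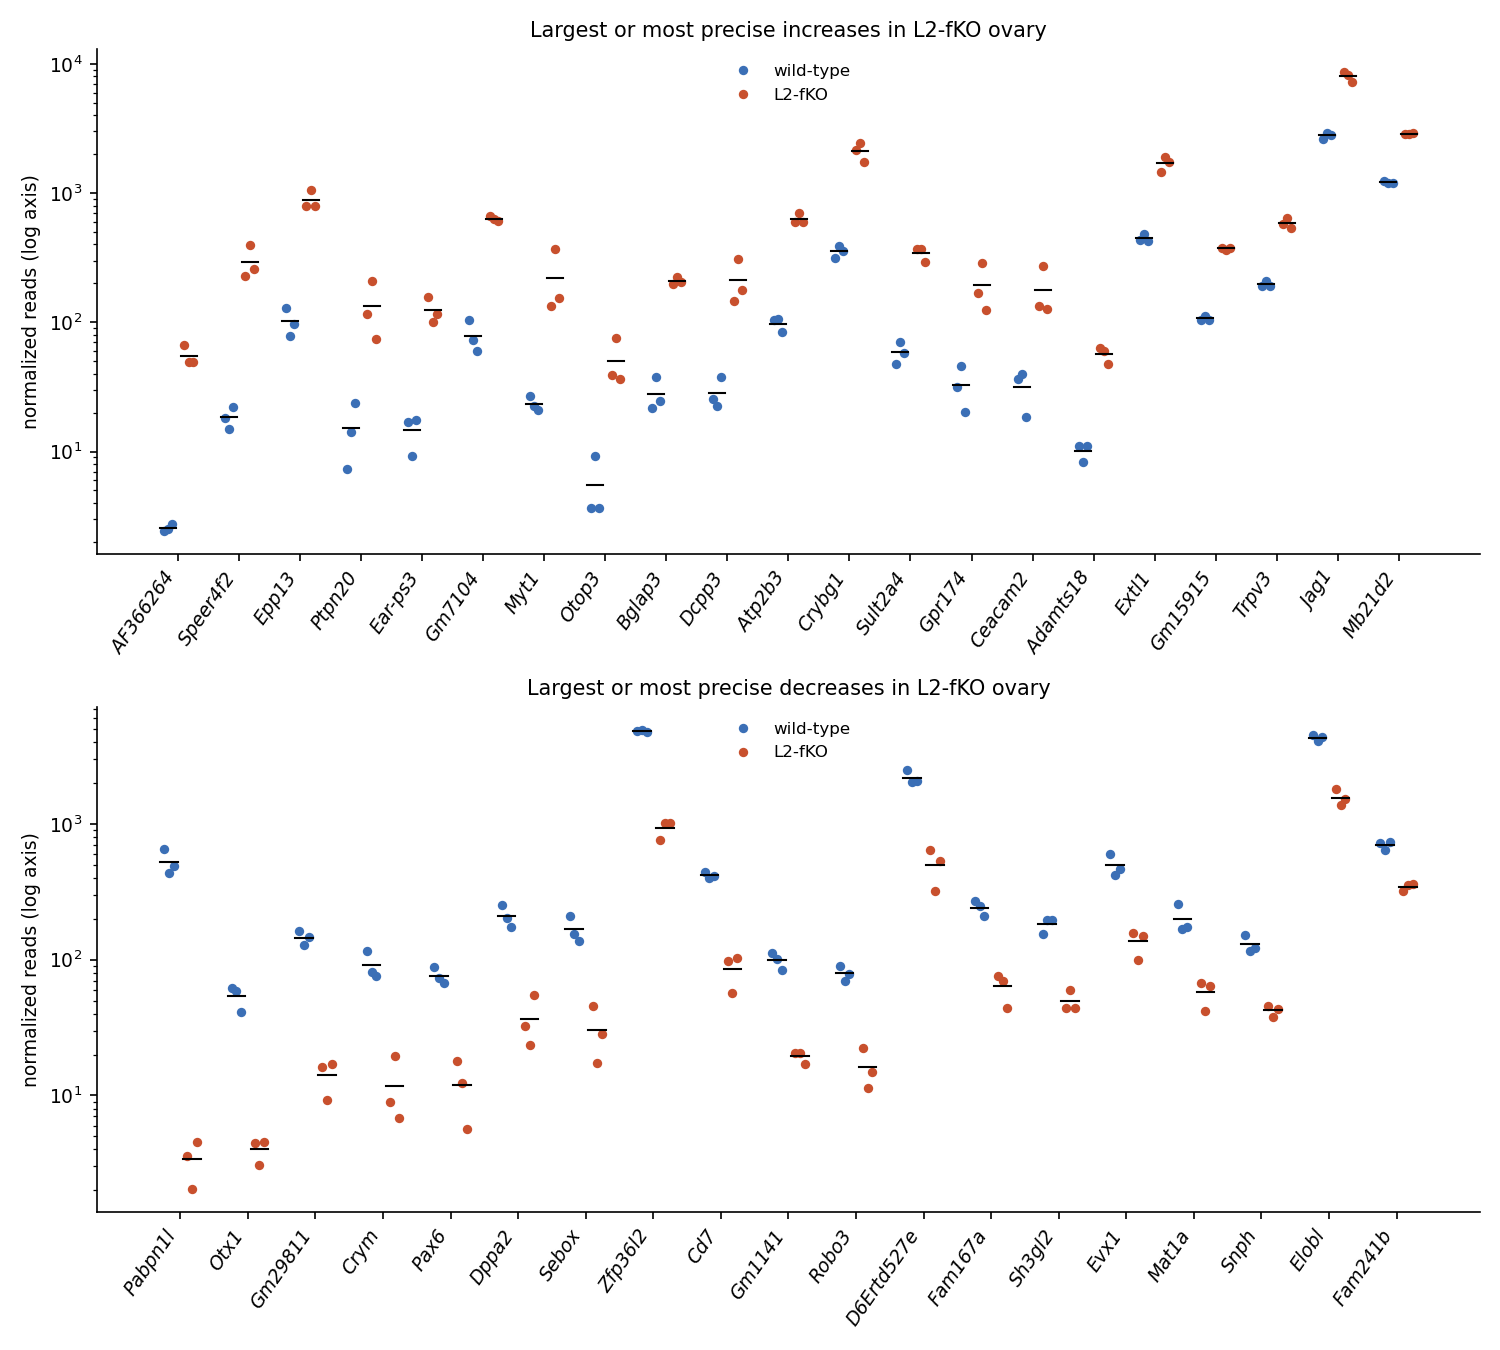
Normalized reads on a log axis in each of the 3 wild-type and 3 L2-fKO ovaries for the genes with the highest or lowest log2 fold change or the smallest p-values, with black bars at the genotype means; *Cdk5r2*, with no read in 1 ovary, is left out. For every gene drawn, the values of the genotypes do not overlap, which the choice of the highest and lowest log2 fold changes required. *Pabpn1l* shows the widest gap.

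Unnamed transcripts were among the strongest differences. *Gm15389* (chr1:107687008-107693514) rose 17.7-fold in the mean, from 148, 161 and 142 normalized reads to 1538, 4546 and 1922 (log2 fold change 3.97 ± 0.36, adjusted p = 0.00449). *Gm44601* had 6.08, 15.04 and 24.8 in wild-type and 145, 242 and 224 in L2-fKO ovaries (log2 fold change 3.81 ± 0.47, adjusted p = 0.0139), and *4632432E15Rik* had 15.8, 19.2 and 11.01 in wild-type and 229.8, 109 and 223 in L2-fKO ovaries (log2 fold change 3.48 ± 0.36, adjusted p = 0.00737). *Gm7104* (105, 72.7 and 59.6 in wild-type and 667, 632 and 604 in L2-fKO ovaries) and *Gm15915* (105, 113 and 104 in wild-type and 374, 366 and 378 in L2-fKO ovaries) were among the 10 increases with the smallest p-values, with log2 fold changes of 3.03 ± 0.21 (adjusted p = 0.00182) and 1.79 ± 0.13 (adjusted p = 0.00200). In the other direction, *Gm29811* had 162, 129 and 146 in wild-type and 16.1, 9.25 and 17.1 in L2-fKO ovaries (log2 fold change -3.31 ± 0.29, adjusted p = 0.00427), *Gm2479* had 157, 143 and 154 in wild-type and 38.5, 11.3 and 29.6 in L2-fKO ovaries (log2 fold change -2.63 ± 0.42, adjusted p = 0.0302) and *Gm1141* had 112, 101 and 84.4 in wild-type and 20.6, 20.6 and 17.1 in L2-fKO ovaries (log2 fold change -2.29 ± 0.23, adjusted p = 0.00694). *Gm15389*, *4632432E15Rik* and *Gm29811* passed with any 1 ovary left out. *Gm44601* did not pass without wild-type ovary 2 or L2-fKO ovary 3, *Gm2479* without any wild-type ovary or L2-fKO ovary 3, and *Gm1141* without wild-type ovary 1 or 2. By annotation, 188 of the 227 upregulated and 57 of the 65 downregulated genes were protein-coding (82.8% and 87.7%, against 83.8% of all tested genes), and 13 and 3 were lincRNAs.

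The deepest decrease was in *Pabpn1l* (chr8:122619471-122622739), which encodes an embryonic poly(A)-binding protein of oocytes. It had 653, 433 and 487 normalized reads in the wild-type ovaries and 3.58, 2.06 and 4.55 in the L2-fKO ovaries. The L2-fKO libraries held 10 reads in all against 1586 in the wild-type libraries, a ratio of 152 after scaling (95% exact interval 82.2 to 317, counting error only; log2 fold change -6.92 ± 0.30, adjusted p = 0.000580). *Btg4*, an adaptor of deadenylation in oocytes that was chosen after its values were seen, had 1407, 1081 and 1074 in wild-type and 935, 572 and 663 in L2-fKO ovaries (log2 fold change -0.73 ± 0.19, adjusted p = 0.123). *Cdk5r2*, an activator of CDK5, had 40.2, 34.3 and 31.2 normalized reads in wild-type and 0, 1.03 and 1.14 in L2-fKO ovaries, which is 108 against 2 reads (ratio 51.6 after scaling, 95% exact interval 13.9 to 431; adjusted p = 0.00623).

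*Otx1*, *Pax6*, *Sebox* and *Evx1*, among the 15 lowest log2 fold changes, encode homeobox transcription factors. They were put together after their values were seen, and homeobox genes as a whole were not counted. *Otx1* had 62.1, 58.5 and 41.3 in wild-type and 4.47, 3.08 and 4.55 in L2-fKO ovaries (log2 fold change -3.44 ± 0.33, adjusted p = 0.00532). *Pax6*, known from eye and brain, had 87.6, 72.7 and 66.98 in wild-type and 17.9, 12.3 and 5.69 in L2-fKO ovaries (log2 fold change -2.68 ± 0.41, adjusted p = 0.0264). *Sebox*, a maternal factor of the oocyte, had 211, 155 and 137 in wild-type and 45.6, 17.5 and 28.5 in L2-fKO ovaries (log2 fold change -2.49 ± 0.36, adjusted p = 0.0234), and *Evx1* had 597, 423 and 465 in wild-type and 158, 99.7 and 150.3 in L2-fKO ovaries (log2 fold change -1.87 ± 0.22, adjusted p = 0.0118). The homeobox gene *Isl2* rose, with 55.97, 63.5 and 71.6 in wild-type and 216, 212 and 258 in L2-fKO ovaries (log2 fold change 1.83 ± 0.18, adjusted p = 0.00623). A lack of overlap between genotypes in the 4 decreased genes was required by the rule that chose the 15 lowest log2 fold changes. *Isl2* did not pass without wild-type ovary 2, *Pax6* and *Evx1* not without any wild-type ovary, and *Sebox* not without any wild-type ovary or L2-fKO ovary 3.

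Further decreases were spread over several functions. *Dppa2*, a chromatin factor of early embryos, had 254, 202 and 175 in wild-type and 32.2, 23.6 and 54.7 in L2-fKO ovaries (log2 fold change -2.55 ± 0.32, adjusted p = 0.0149), and *Crym*, a thyroid hormone-binding protein, had 116, 81.1 and 75.2 in wild-type and 8.94, 19.5 and 6.83 in L2-fKO ovaries (log2 fold change -2.94 ± 0.41, adjusted p = 0.0199). *Cd7* had 444, 397 and 415 in wild-type and 98.4, 56.5 and 102 in L2-fKO ovaries (log2 fold change -2.32 ± 0.24, adjusted p = 0.00737), and *D6Ertd527e* had 2473, 2033 and 2064 in wild-type and 639, 323 and 528 in L2-fKO ovaries (log2 fold change -2.19 ± 0.23, adjusted p = 0.00829). *Mat1a*, which makes S-adenosylmethionine, had 257, 167 and 172 in wild-type and 67.1, 42.1 and 63.8 in L2-fKO ovaries (log2 fold change -1.77 ± 0.26, adjusted p = 0.0252). The others were the axon guidance receptor gene *Robo3* (-2.27 ± 0.31, adjusted p = 0.0188), *Fam167a* (-1.94 ± 0.24, adjusted p = 0.0139), *Sh3gl2*, an endocytosis protein (-1.87 ± 0.21, adjusted p = 0.00998), and *Snph*, which anchors mitochondria (-1.59 ± 0.20, adjusted p = 0.0155). *Elobl* had 4529, 4053 and 4375 in wild-type and 1794, 1368 and 1524 in L2-fKO ovaries (log2 fold change -1.47 ± 0.11, adjusted p = 0.00200), and *Fam241b* had 724, 639 and 736 in wild-type and 320.2, 358 and 359 in L2-fKO ovaries (log2 fold change -1.02 ± 0.11, adjusted p = 0.00829). With an ovary left out, *Zfp36l2*, *Elobl* and *Gm29811* were the only decreases that passed every time; of the 15 lowest log2 fold changes, 2, 1 and 1 passed without wild-type ovary 1, 2 and 3, and 14, 15 and 11 without L2-fKO ovary 1, 2 and 3. *Pabpn1l*, *Otx1* and *Cdk5r2* then had too few libraries with 10 reads to be tested without a wild-type ovary.

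Genes of oocyte growth were examined as a list of 48, all measured. With all 6 ovaries 1 rose and none fell in limma, beside 1.22% and 0.35% of all tested genes. An unadjusted p below 0.05 was found for 18 of the 48, beside 16.8% of all tested genes, and 10 passed in DESeq2, beside 6.02%. The median log2 fold change was -0.11 with all 6 ovaries and -0.08 without L2-fKO ovary 2, and 20 of 48 were above 0, as were 49.3% of all tested genes. The gene that rose was *Khdc3*, a member of the subcortical maternal complex that the embryo needs after fertilization, with 3928, 3896 and 3619.6 in wild-type and 6425, 6252 and 6814 in L2-fKO ovaries (log2 fold change 0.77 ± 0.068, adjusted p = 0.00427); it passed with any 1 ovary left out. Of the other complex genes, *Nlrp5* had 35628, 30065 and 39329 in wild-type and 59802, 33735 and 58890.0 in L2-fKO ovaries (log2 fold change 0.50 ± 0.23, adjusted p = 0.320), *Ooep* 8838, 8999 and 10003 in wild-type and 7930.4, 9209 and 7542 in L2-fKO ovaries (log2 fold change -0.18 ± 0.094, adjusted p = 0.395) and *Tle6* 20677, 21185 and 22747 in wild-type and 23114, 23701 and 23899.9 in L2-fKO ovaries (log2 fold change 0.13 ± 0.07, adjusted p = 0.398). *Padi6* had 89723, 92491 and 99980.4 in wild-type and 109950.0, 118111 and 115788 in L2-fKO ovaries (log2 fold change 0.29 ± 0.097, adjusted p = 0.205). Without L2-fKO ovary 2, 3 genes of the list rose and 3 fell, beside 1.51% and 0.742% of all genes then tested. Those that rose were *Khdc3*, *Nlrp5* (log2 fold change 0.77, adjusted p = 0.0265) and *Lhx8*, a transcription factor of primordial follicles (1370.1, 1638 and 1586 in wild-type and 2538, 4752 and 2808 in L2-fKO ovaries; 0.81, adjusted p = 0.0107). Those that fell were *Bcl2l10* (2928, 2371 and 2261 in wild-type and 1066, 293 and 733 in L2-fKO ovaries; -1.50, adjusted p = 0.00974), *Mos*, the kinase that holds the egg in metaphase (1245, 1079 and 930.4 in wild-type and 665, 310.3 and 486 in L2-fKO ovaries; -0.92, adjusted p = 0.0449), and *Omt2a* (607, 553 and 556 in wild-type and 356, 127 and 244 in L2-fKO ovaries; -0.95, adjusted p = 0.0396). The members named here besides *Khdc3* were chosen after their values were seen.

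Some other genes, taken here as oocyte or germ cell genes, were chosen after their values were seen and because they fell. How many such genes went either way was not counted, and whole-ovary values do not place them in oocytes. *Nlrp4c*, also an oocyte gene, rose (log2 fold change 1.05 ± 0.093, adjusted p = 0.00429) and is given below with its neighbors. *Izumo1r*, the egg receptor for sperm known as Juno, had 465, 386 and 409 in wild-type and 189, 146 and 198 in L2-fKO ovaries (log2 fold change -1.25 ± 0.16, adjusted p = 0.0156), and *Patl2*, an RNA-binding protein of the oocyte, had 1431, 1285 and 1444 in wild-type and 808, 444 and 674 in L2-fKO ovaries (log2 fold change -1.15 ± 0.20, adjusted p = 0.0413). *Kif17*, a kinesin, had 1944, 1652 and 1769 in wild-type and 875, 463 and 773 in L2-fKO ovaries (log2 fold change -1.39 ± 0.22, adjusted p = 0.0302). *Ddx25*, a germ cell RNA helicase, had 302, 297 and 312 in wild-type and 142, 196 and 151 in L2-fKO ovaries (log2 fold change -0.91 ± 0.16, adjusted p = 0.0410), and *Cpsf4l*, related to a polyadenylation factor, had 2942, 2743 and 2722 in wild-type and 1858, 1246 and 1569 in L2-fKO ovaries (log2 fold change -0.86 ± 0.14, adjusted p = 0.0306). Opposite to these, 3 genes of germ cell forms of the general transcription machinery rose: *Tbpl2*, the TATA-binding protein paralog of oocytes, had 461, 616 and 561 in wild-type and 1055, 1356 and 993 in L2-fKO ovaries (log2 fold change 1.05 ± 0.15, adjusted p = 0.0246), *Gtf2a1l*, its TFIIA-like partner, had 427, 422 and 389.9 in wild-type and 738, 667 and 769.8 in L2-fKO ovaries (log2 fold change 0.81 ± 0.10, adjusted p = 0.0148), and *Taf4b*, the gonadal TFIID subunit, had 1289, 1119.7 and 1029 in wild-type and 1752, 1693 and 1641 in L2-fKO ovaries (log2 fold change 0.57 ± 0.097, adjusted p = 0.0372). Their general counterparts *Tbp* (-0.23 ± 0.078, adjusted p = 0.201), *Gtf2a1* (-0.35 ± 0.23, adjusted p = 0.494) and *Taf4* (-0.04 ± 0.081, adjusted p = 0.855) did not pass. *Tbpl1*, another paralog of the TATA-binding protein, did not pass either (-0.12 ± 0.11, adjusted p = 0.602). All of these transcription machinery genes were also chosen after their values were seen. The difference between the germ cell forms and their counterparts was not tested. None of *Izumo1r*, *Patl2*, *Kif17*, *Ddx25*, *Cpsf4l*, *Tbpl2*, *Gtf2a1l* and *Taf4b* passed without wild-type ovary 1, 2 or 3. All 8 passed without L2-fKO ovary 2; *Patl2*, *Kif17*, *Ddx25*, *Cpsf4l* and *Taf4b* did not pass without L2-fKO ovary 3, and *Ddx25*, *Tbpl2* and *Taf4b* not without L2-fKO ovary 1.

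Of the 31 measured genes of meiotic prophase none passed with all 6 ovaries in limma, 7 had an unadjusted p below 0.05 (beside 16.8% of all tested genes) and 1 passed in DESeq2 (beside 6.02%), and their median log2 fold change was 0.30 with and 0.02 without L2-fKO ovary 2. *Sycp3*, a protein of the synaptonemal complex that joins paired chromosomes, had 915, 1333 and 1366 in wild-type and 2959, 8334 and 3417 in L2-fKO ovaries. Its 3 L2-fKO values all exceeded the wild-type values (log2 fold change 1.89 ± 0.37, adjusted p = 0.0599), and it passed without L2-fKO ovary 2 (log2 fold change 1.42, adjusted p = 0.0124). *Dmc1*, the meiotic recombinase, had 81.5, 121 and 117 in wild-type and 151, 215 and 161 in L2-fKO ovaries (log2 fold change 0.72 ± 0.23, adjusted p = 0.177). *Sycp1*, chosen after its values were seen, was highest in L2-fKO ovary 2 and overlapped between genotypes otherwise, with 572, 799 and 764 in wild-type and 849, 2478 and 711 in L2-fKO ovaries.

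The Notch pathway list held 2 genes that passed, both upwards, among 21 measured (beside 1.22% of all tested genes), with a median log2 fold change of 0.27 with all 6 ovaries and 0.31 without L2-fKO ovary 2 and 17 of 21 above 0. An unadjusted p below 0.05 was found for 8 of the 21 (beside 16.8%), and 6 passed in DESeq2 (beside 6.02%). Among the ligands, *Jag1* rose as described above, and *Jag2* had 3153, 3757 and 3515 in wild-type and 4479, 6646 and 4745 in L2-fKO ovaries without passing (log2 fold change 0.59 ± 0.15, adjusted p = 0.119). Of the receptors, *Notch3*, found on pericytes and smooth muscle cells, had 1920.1, 2047 and 1769.9 in wild-type and 3081, 2981 and 2559 in L2-fKO ovaries (log2 fold change 0.59 ± 0.095, adjusted p = 0.0324), whereas *Notch1* (0.40 ± 0.096, adjusted p = 0.0939) and *Notch2* (0.21 ± 0.18, adjusted p = 0.602) did not pass. The target gene *Heyl* had 4166, 4694 and 4700.4 in wild-type and 5399, 6196 and 5828 in L2-fKO ovaries (log2 fold change 0.36 ± 0.081, adjusted p = 0.0845), and the targets *Hes1* and *Hey1* overlapped between genotypes, with log2 fold changes of 0.14 ± 0.13 (adjusted p = 0.631) and 0.05 ± 0.10 (adjusted p = 0.829), the latter -0.05 without L2-fKO ovary 2. Summed over the list, the values were 37225 to 38969 in wild-type and 46631 to 56080.3 in L2-fKO ovaries. *Jag1* passed with any 1 ovary left out, and *Notch3* did not pass without any 1 of the 3 wild-type ovaries or without L2-fKO ovary 1. *Pdgfrb*, the platelet-derived growth factor receptor of pericytes, also rose, with 2779, 2978 and 2490.1 in wild-type and 4463, 4260.1 and 4025 in L2-fKO ovaries (log2 fold change 0.63 ± 0.085, adjusted p = 0.0187), and its part in the *Notch3* difference was not tested. It was the only 1 of the 20 genes of the stroma and smooth muscle list that passed, with or without L2-fKO ovary 2, and 8 of the 20 were above 0 (median -0.14 with all 6 ovaries and 0.10 without L2-fKO ovary 2). *Pdgfrb* and *Notch3* failed the test in the same 4 fits with an ovary left out. *Jag2*, *Notch1*, *Notch2*, *Heyl*, *Hes1* and *Hey1* were chosen after their values were seen.

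All 20 measured endothelial genes had a log2 fold change above 0, beside 49.3% of all tested genes, with a median of 0.35 with all 6 ovaries and 0.36 without L2-fKO ovary 2. An unadjusted p below 0.05 was found for 14 of them (beside 16.8%), 7 passed in DESeq2 (beside 6.02%) and 1 passed in limma (beside 1.22% upwards): *Cdh5*, the cadherin of endothelial junctions, had 4580.1, 5011 and 4544 in wild-type and 6245, 6194 and 5909 in L2-fKO ovaries (log2 fold change 0.38 ± 0.067, adjusted p = 0.0424). Summed over the list, endothelial genes had 27046 to 28741 in wild-type and 33263 to 38169.6 in L2-fKO ovaries. Without L2-fKO ovary 2 *Tie1*, an endothelial receptor kinase chosen after its values were seen, passed as well (0.47, adjusted p = 0.0251). Of 40 extracellular matrix genes 35 were above 0, and 1 passed, the basement membrane gene *Nid2* with 5741, 6064 and 5541 in wild-type and 7483, 7293 and 7631 in L2-fKO ovaries (log2 fold change 0.37 ± 0.064, adjusted p = 0.0381); the list median was 0.20 with all 6 ovaries and 0.22 without L2-fKO ovary 2, 12 had an unadjusted p below 0.05 and 5 passed in DESeq2. Without L2-fKO ovary 2, 2 matrix genes passed, beside 1.51% of all genes then tested upwards. They were *Nid2* and the basement membrane collagen gene *Col4a2*, chosen after its values were seen (0.51, adjusted p = 0.0430). With all 6 ovaries *Col4a2* had 0.48 ± 0.089 (adjusted p = 0.0508). None of the 6 measured lymphatic genes passed in limma or DESeq2, and 1 had an unadjusted p below 0.05. Their median was 0.24 with all 6 ovaries and 0.41 without L2-fKO ovary 2. The smallest p-values were those of *Flt4* (0.40 ± 0.15, adjusted p = 0.255) and *Reln* (0.59 ± 0.29, adjusted p = 0.363). *Cdh5* and *Nid2* kept an adjusted p below 0.05 without L2-fKO ovary 2, and lost it without any other ovary.

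Macrophage genes had the highest list median, 0.64 with all 6 ovaries and 0.57 without L2-fKO ovary 2, over 18 genes with 17 above 0. None passed in limma or edgeR; 14 had an unadjusted p below 0.05 (beside 16.8% of all tested genes) and 8 passed in DESeq2 (beside 6.02%). Their sum was 5141 to 5537 in wild-type and 6305 to 9902 in L2-fKO ovaries, so that the genotypes did not overlap. *C1qa*, of the first complement component, had 383, 317 and 319 in wild-type and 829, 790.2 and 484 in L2-fKO ovaries (log2 fold change 1.01 ± 0.21, adjusted p = 0.0726), and *Timd4*, a marker of resident macrophages, was the only member below 0, with 29.2, 26.7 and 23.9 in wild-type and 10.7, 8.22 and 11.4 in L2-fKO ovaries (log2 fold change -1.32 ± 0.30, adjusted p = 0.0841). In the lymphocyte list, 1 of 11 tested genes passed (beside 1.22% of all tested genes upwards): *Cd4*, the coreceptor of helper T cells, had 60.8, 46.8 and 55.97 in wild-type and 189.6, 315 and 229 in L2-fKO ovaries (log2 fold change 2.12 ± 0.23, adjusted p = 0.00929). The lymphocyte median was 0.55 both with all 6 ovaries and without L2-fKO ovary 2, and 10 of 11 genes were above 0. An unadjusted p below 0.05 was found for 3 of the 11, and 1 passed in DESeq2. The T-cell genes *Cd3d*, *Cd3e* and *Cd8a* were not in the table. Interferon-stimulated genes had a median of 0.53 with all 6 ovaries and 0.54 without L2-fKO ovary 2, over 25 genes with 23 above 0, 18 at an unadjusted p below 0.05 and 10 passed in DESeq2, and *Isg15*, a ubiquitin-like antiviral protein, was the 1 that passed, with 46.2, 34.3 and 44.04 in wild-type and 104, 165 and 123 in L2-fKO ovaries (log2 fold change 1.62 ± 0.25, adjusted p = 0.0267). The part of immune cell number in these values was not tested. *Cd4* did not pass without wild-type ovary 2 or 3, and *Isg15* not without any wild-type ovary or L2-fKO ovary 3. Of the 10 mast cell genes none passed (median -0.71 with all 6 ovaries and -0.30 without L2-fKO ovary 2; 4 at an unadjusted p below 0.05 and 2 in DESeq2); *Tpsb2* and *Cpa3*, both mast cell proteases, had log2 fold changes of -1.07 ± 0.29 (adjusted p = 0.133) and -1.05 ± 0.32 (adjusted p = 0.163). Of 17 granulocyte genes 10 were not in the table, and of the others none had an unadjusted p below 0.05 or passed in DESeq2. The median of these others was -0.39 with all 6 ovaries and -0.43 without L2-fKO ovary 2. *Ltf* (-0.86 ± 0.67, adjusted p = 0.559) and *Csf3r* (0.42 ± 0.28, adjusted p = 0.508) had the smallest p-values.

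Red cell genes gave mixed values. None of the 17 measured passed with all 6 ovaries in limma, 6 had an unadjusted p below 0.05 (beside 16.8% of all tested genes) and 4 passed in DESeq2 (beside 6.02%). Their median was 0.22 with all 6 ovaries and 0.24 without L2-fKO ovary 2. The globin genes *Hba-a1* and *Hbb-bt* had log2 fold changes of 1.18 ± 0.24 (adjusted p = 0.0700) and 1.28 ± 0.36 (adjusted p = 0.140), and the membrane protein gene *Epb42* had -1.57 ± 0.31 (adjusted p = 0.0572). The sums over the list were 15667 to 19988 in wild-type and 21146 to 32119.8 in L2-fKO ovaries. Their part in other results was not tested. Without L2-fKO ovary 2, *Hba-a1* (log2 fold change 1.35, adjusted p = 0.0396) and *Epb42* (-1.72, adjusted p = 0.0477) passed in opposite directions. Of all genes then tested, 1.51% passed upwards and 0.742% downwards.

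In the lists of follicular somatic cells, metabolism and growth signals 1 gene each passed, all upwards, with or without L2-fKO ovary 2 except where stated. Beside 1.22% of all tested genes, a single gene is too few to say whether a list of this size differs from the background. In the granulosa list 1 of 30 genes rose, *Sfrp4*, a secreted Wnt inhibitor, with 376, 507 and 331 in wild-type and 916, 917 and 1526 in L2-fKO ovaries (log2 fold change 1.44 ± 0.24, adjusted p = 0.0334), and the median was -0.22 with all 6 ovaries and -0.05 without L2-fKO ovary 2. With all 6 ovaries, 5 of the 30 were above 0, beside 49.3% of all tested genes. In the list of theca and steroidogenic genes 1 of 23 rose, *Hsd3b6*, a 3β-hydroxysteroid dehydrogenase, with 163, 158 and 148 in wild-type and 287, 329 and 338 in L2-fKO ovaries (log2 fold change 1.02 ± 0.14, adjusted p = 0.0179; list median -0.06 with all 6 ovaries and 0.22 without L2-fKO ovary 2). Among 26 genes of cholesterol synthesis and its control 1 rose, *Insig1*, which retains SREBP in the endoplasmic reticulum, with 4955, 5443 and 5042 in wild-type and 7571, 9525 and 7188 in L2-fKO ovaries (log2 fold change 0.64 ± 0.11, adjusted p = 0.0381; median 0.02 with all 6 ovaries and 0.02 without L2-fKO ovary 2). *Pik3cb*, the catalytic β subunit of PI3-kinase, was the 1 of 28 insulin and growth factor genes that rose, with 608, 577 and 649 in wild-type and 1281, 1980.0 and 1319.8 in L2-fKO ovaries (log2 fold change 1.29 ± 0.17, adjusted p = 0.0164; median 0.03 with all 6 ovaries and -0.02 without L2-fKO ovary 2). *Pfkfb3*, a regulator of glycolysis and the 1 of 20 hypoxia genes that passed, had 2272, 2127 and 2332 in wild-type and 3745, 4940.3 and 3432 in L2-fKO ovaries (log2 fold change 0.83 ± 0.13, adjusted p = 0.0302; median 0.12 with all 6 ovaries and 0.17 without L2-fKO ovary 2). In the Wnt list of 36, *Sfrp4* was again the gene that passed (median -0.02 with all 6 ovaries and 0.0018 without L2-fKO ovary 2), and without L2-fKO ovary 2 another Wnt inhibitor gene, *Sfrp1*, chosen after its values were seen, passed as well (0.32, adjusted p = 0.0450; with all 6 ovaries 0.24 ± 0.084, adjusted p = 0.216). The members at an unadjusted p below 0.05 and those passed in DESeq2 numbered 4 and 2 in the granulosa list, 1 and 1 in the theca list, 4 and 3 in the cholesterol list, 5 and 2 in the insulin list, 2 and 2 in the hypoxia list and 8 and 3 in the Wnt list. Members above 0 numbered 9 of 23 in the theca list, 16 of 26 in the cholesterol list and 17 of 28 in the insulin list. They numbered 18 of 20 in the hypoxia list and 15 of 36 in the Wnt list. None of *Sfrp4*, *Hsd3b6*, *Insig1*, *Pik3cb* and *Pfkfb3* passed when any wild-type ovary was left out, and all passed without L2-fKO ovary 2; *Sfrp4*, *Insig1* and *Pfkfb3* did not pass without L2-fKO ovary 1, and *Sfrp4*, *Insig1* and *Hsd3b6* not without L2-fKO ovary 3.

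Lists with no gene past the test (limma) are given by their size, their median log2 fold changes with all 6 ovaries and without L2-fKO ovary 2, the numbers of members at an unadjusted p below 0.05 and of members that passed in DESeq2, in this order, and the 2 members with the smallest p-values with their log2 fold changes. Over all tested genes, 16.8% had an unadjusted p below 0.05 and 6.02% passed in DESeq2. None of the 391 tested members of the 21 such lists passed in edgeR either, counting a gene in each list that holds it. They included the deadenylation and decay machinery (30 genes, medians -0.07 and -0.03, 6 and 0), with *Cnot11* at -0.25 ± 0.073 (adjusted p = 0.151) and *Edc4* at -0.17 ± 0.057 (adjusted p = 0.211). They also included immediate early genes and cytokines known for unstable mRNAs (34 genes, medians 0.19 and 0.20, 7 and 2), with *Dusp2* at 0.65 ± 0.15 (adjusted p = 0.0850) and *Nr4a3* at 0.89 ± 0.21 (adjusted p = 0.0926); *Tnf*, *Il6* and *Ptgs2* were not in the table. No gene passed among cell cycle genes (35 genes, medians -0.13 and -0.06, 4 and 1), with *Ccnd1* at 0.44 ± 0.16 (adjusted p = 0.217) and *Cdkn1a* at 0.81 ± 0.22 (adjusted p = 0.127). The same held for glucocorticoid response genes (19 genes, medians 0.16 and 0.24, 4 and 1), with *Cdkn1a* at 0.81 ± 0.22 (adjusted p = 0.127) and *Cebpd* at 0.53 ± 0.16 (adjusted p = 0.168). Among signaling genes, none passed in the TGF-β, BMP and activin list (31 genes, medians -0.02 and -0.03, 2 and 0), with *Bmp6* at 0.25 ± 0.073 (adjusted p = 0.149) and *Tgfb1* at 0.29 ± 0.091 (adjusted p = 0.176). Nuclear receptors held none either (38 genes, medians -0.04 and -0.0015, 7 and 3), with *Nr4a3* at 0.89 ± 0.21 (adjusted p = 0.0926) and *Thrb* at 1.00 ± 0.23 (adjusted p = 0.0926), though *Esr1*, the estrogen receptor, chosen after its values were seen, passed without L2-fKO ovary 2 (log2 fold change 0.49, adjusted p = 0.00974). Finally, none passed in the histone methylation list (35 genes, medians -0.05 and -0.03, 7 and 3), with *Suv39h2* at -0.43 ± 0.083 (adjusted p = 0.0582) and *Kdm2b* at -0.32 ± 0.065 (adjusted p = 0.0669).

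Cells of the ovary surface and tissues that could be dissected with the ovary were checked in the same way, with the same order of values, and none of their genes passed. In the surface epithelium and mesothelium list (18 genes, medians 0.09 and -0.18, 1 and 1), *Cldn1* had 0.44 ± 0.089 (adjusted p = 0.0666) and *Aldh1a1* 0.20 ± 0.091 (adjusted p = 0.314). In the adipocyte list (15 genes, medians -0.50 and -0.21, 0 and 0), *Adipoq* had -1.18 ± 0.51 (adjusted p = 0.303) and *Lpl* -0.27 ± 0.13 (adjusted p = 0.345). Oviduct and ciliated cell genes (11, medians -0.13 and -0.07, 0 and 0) had *Foxj1* at -0.70 ± 0.33 (adjusted p = 0.341) and *Pax8* at -0.33 ± 0.26 (adjusted p = 0.574). Nerve and glia genes (11, medians -0.07 and -0.07, 0 and 0) had *Uchl1*, also an oocyte gene, at 0.27 ± 0.12 (adjusted p = 0.302) and *Dbh* at 1.05 ± 0.55 (adjusted p = 0.385). For skeletal muscle (8 of 16 genes in the table, medians 0.14 and 0.07, 1 and 1, with *Acta1*, *Ckm*, *Myh1* and *Myh4* not in it), *Mb* had -0.69 ± 0.33 (adjusted p = 0.343) and *Myh2* 0.85 ± 0.26 (adjusted p = 0.169). For kidney (6 of 12, medians 0.0015 and 0.07, 2 and 0), *Umod* had -1.02 ± 0.37 (adjusted p = 0.229). For adrenal cortex (5 of 8, medians -0.07 and 0.32, 1 and 0, with the defining enzymes *Cyp11b1*, *Cyp11b2* and *Cyp21a1* not in the table), *Mc2r* had 0.64 ± 0.30 (adjusted p = 0.331) and *Akr1b7* 1.10 ± 0.31 (adjusted p = 0.143). For liver, gut and pancreas (6 of 15, medians -0.54 and -0.73, 1 and 1, with *Alb*, *Fabp1* and *Ins2* not in the table), *Cpa1*, a carboxypeptidase, had 1346, 1014 and 1047 in wild-type and 430.1, 102 and 292 in L2-fKO ovaries (log2 fold change -2.26 ± 0.47, adjusted p = 0.0700) and *Vil1* 1989.5, 2264 and 2041 in wild-type and 1032, 2329 and 1129.6 in L2-fKO ovaries (log2 fold change -0.59 ± 0.28, adjusted p = 0.346). Both passed without L2-fKO ovary 2 (adjusted p = 0.00972 and 0.00418), beside 0.742% of all genes then tested downwards.

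**Figure D4:**
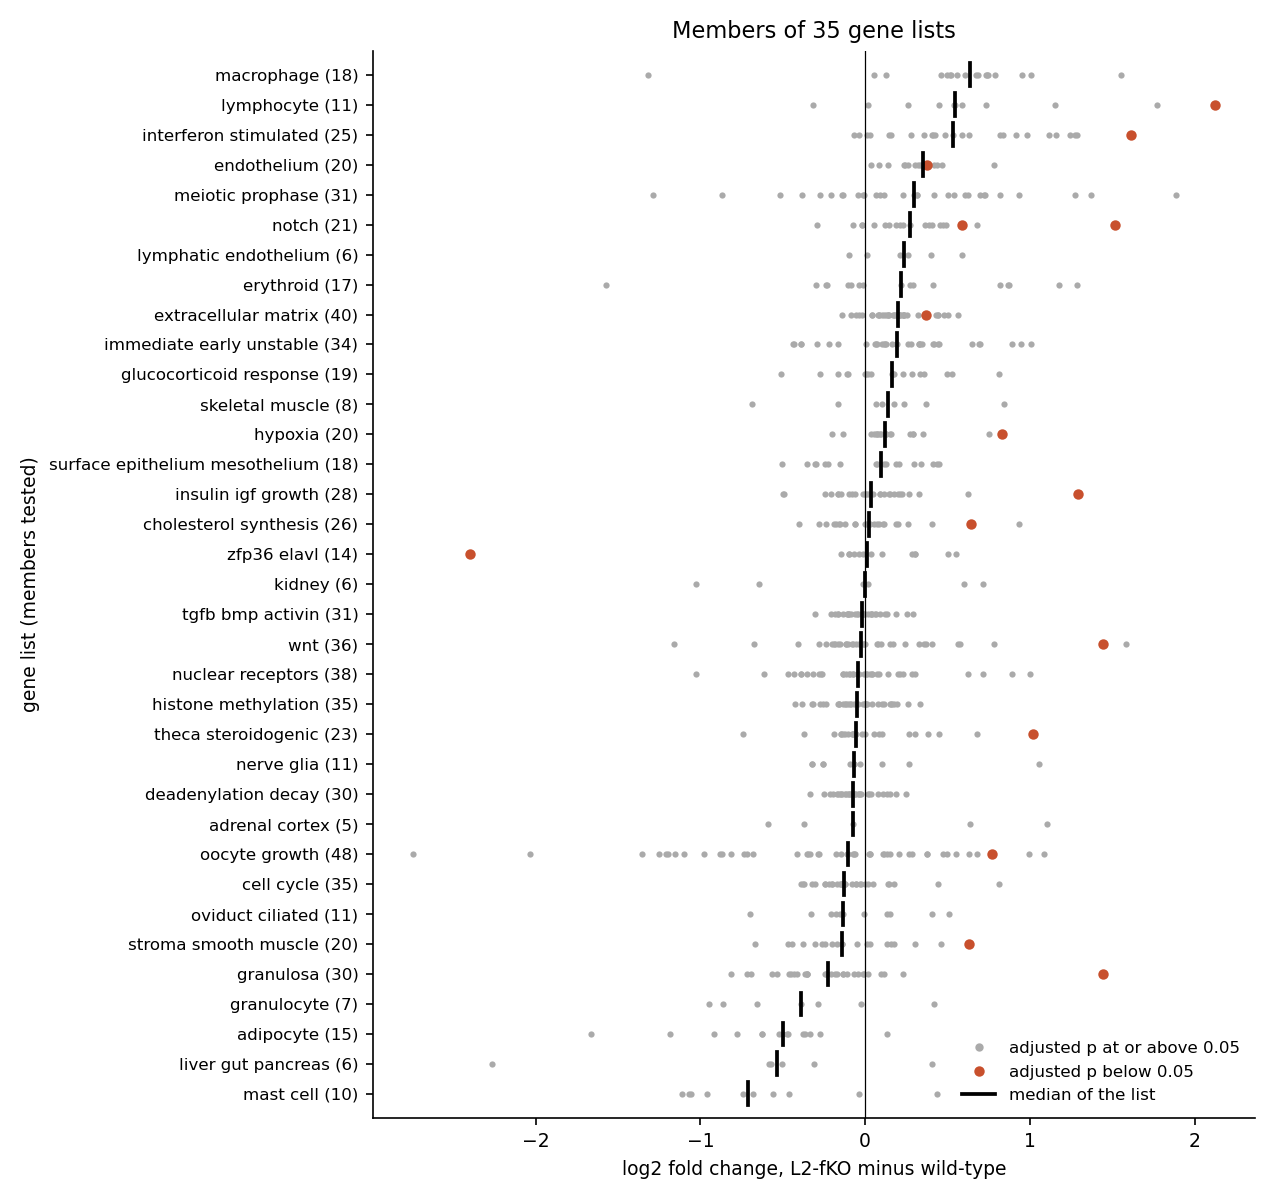
Log2 fold change of each tested member of 35 gene lists, with larger red points for members with adjusted p below 0.05 and a black bar at the median of each list, ordered by that median. The medians run from -0.71 for mast cell genes to 0.64 for macrophage genes, and the Notch list holds 2 of the passed members; without L2-fKO ovary 2, the mast cell median is -0.30 and the lowest is -0.73, for liver, gut and pancreas genes.

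The 3′UTRs of the changed genes were then searched for the ZFP36 family element. A 3′UTR was annotated for 15473 of the 18547 tested genes, and UAUUUAU on the mRNA strand was counted in the longest one, overlapping copies included. It was present in 65 of the 187 upregulated genes with a 3′UTR (34.8%; 95% Wilson interval 28.3% to 41.8%), in 29.2% of the 15229 genes that did not pass and in 11 of 57 downregulated genes (19.3%, 11.1% to 31.3%). Copies numbered 2 or more in 16.0%, 10.4% and 7.02% of these groups. The shorter AUUUA was about as frequent in all 3, at 69.5%, 69.4% and 66.7%. Upregulated genes had a median 3′UTR of 1156 nt, those that did not pass 1301 nt and downregulated genes 996 nt. Within 5 groups of 3′UTR length of about equal size, the share in upregulated genes was 7.89%, 18.6%, 41.5%, 41.2% and 74.2% from shortest to longest, and in genes that did not pass 5.81%, 15.9%, 27.4%, 39.0% and 57.6%. The share was thus higher in upregulated genes than in those that did not pass in all 5 groups, and the 95% interval of that share included the share of the genes that did not pass in 4 of the 5. In the group of middle length it began at 27.8%, beside a share of 27.4%. The downregulated genes numbered 12, 15, 17, 7 and 6 in these groups, and 0, 3, 6, 2 and 0 of them held the element (0%, 20%, 35.3%, 28.6% and 0%, the Wilson intervals of the first and last reaching 24.2% and 39%). Their share lay above that of the genes that did not pass in the next-shortest and the middle group and below it in the other 3, and the interval included that share in all groups but the longest. With the fold limit added the shares were 31.3% of 99 upregulated and 11.8% of 34 downregulated genes. These shares are a description of annotated sequence, without a test.

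**Figure D5:**
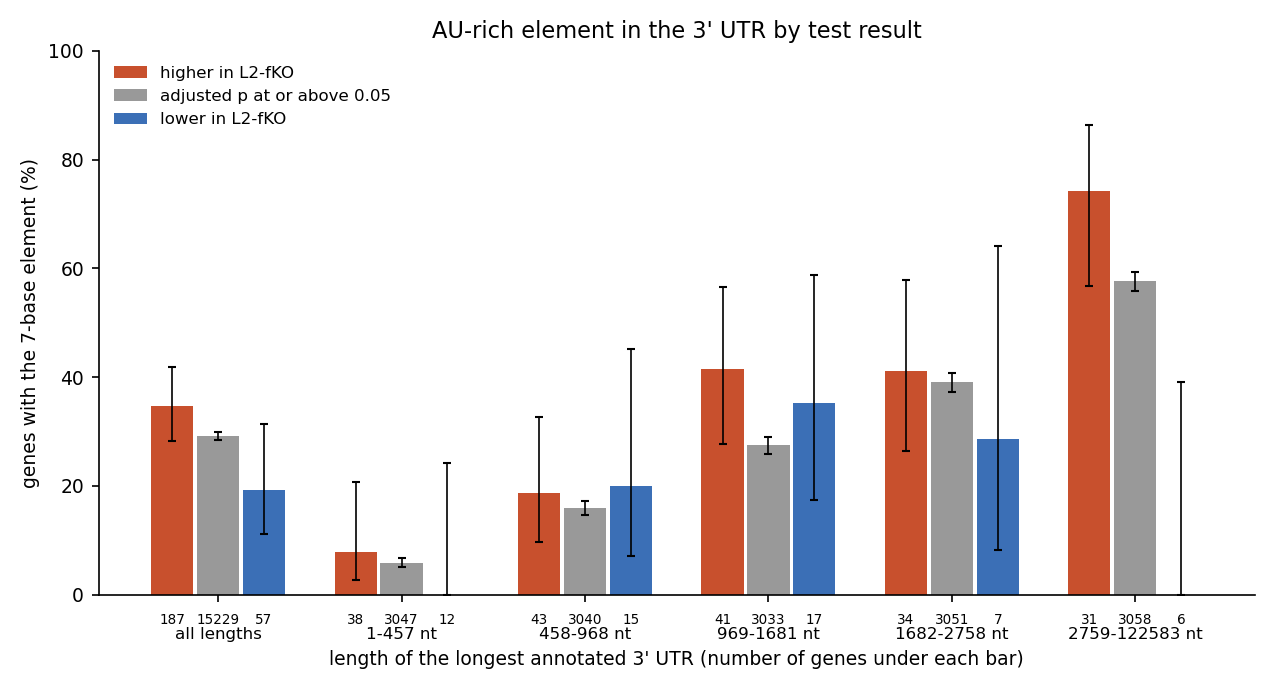
Percentage of genes whose longest annotated 3′UTR holds UAUUUAU, for all lengths and in 5 groups of 3′UTR length, with bars from 0, error bars for the 95% Wilson interval and the number of genes under each bar. In every length group the bar of the upregulated genes is higher than that of the genes that did not pass.

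Changed genes lay on all autosomes and the X chromosome. Upregulated genes made up between 0.547% of the tested genes on chromosome 11 and 2.06% on the X chromosome (14 of 679), beside 1.22% overall. Within 10 Mb of *Zfp36l2* on chromosome 17, 1 of 84 tested genes passed, *Gtf2a1l*, and the median log2 fold change was 0.04. Some changed genes were neighbors. On chromosome 8, *Rab3a* and *Ifi30* rose (log2 fold changes 1.87 ± 0.15 (adjusted p = 0.00343) and 0.61 ± 0.093, adjusted p = 0.0269), and on chromosome 7, *Epp13*, *Zim2* and *Nlrp4c* rose. *Zim2* had 3.65, 5.01 and 6.42 in wild-type and 25.04, 57.5 and 30.7 in L2-fKO ovaries (log2 fold change 2.62 ± 0.41, adjusted p = 0.0294) and *Nlrp4c* had 870.0, 804 and 892 in wild-type and 1649, 1958 and 1708 in L2-fKO ovaries (log2 fold change 1.05 ± 0.093, adjusted p = 0.00429). On the X chromosome, *Xlr3a* (0.93 ± 0.14, adjusted p = 0.0267) and *Xlr3c* (2.08 ± 0.35, adjusted p = 0.0366), near-identical copies whose reads are hard to tell apart, lay close to *Atp2b3*. On chromosome 16 neighbors went in opposite directions, *Dppa2* down and *Morc1*, a germ cell gene, up (1.14 ± 0.18, adjusted p = 0.0306). *Gng3* and *Bscl2* on chromosome 19 both fell (-1.25 ± 0.14 (adjusted p = 0.0111) and -0.65 ± 0.12, adjusted p = 0.0494), but the genes overlap (chr19:8836933-8839194 and chr19:8837467-8848683), so their reads may be shared. Apart from *Epp13*, *Rab3a*, *Nlrp4c* and *Atp2b3*, none of the genes named here passed when any wild-type ovary was left out. Without L2-fKO ovary 3 *Ifi30*, *Xlr3a*, *Xlr3c* and *Morc1* did not pass, and without L2-fKO ovary 1 *Morc1* and *Bscl2* did not. *Zim2* had too few reads to be tested without an L2-fKO ovary. Except for *Dppa2*, *Atp2b3* and *Epp13*, these neighbors were chosen after their values were seen.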

How the data were processed

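Polyadenylated ovary RNA was sequenced from 3 L2-fKO and 3 wild-type females. Per the labels and the study's methods, the authors trimmed reads with Trimmomatic 0.36, aligned them to GRCm38 with STAR 2.5.2b, counted them per gene with featureCounts (Subread 1.5.2) and divided them by DESeq2 size factors. The deposited values are this normalized signal per gene. The columns of the authors' own comparison (fold changes and p-values) were not used.

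Each column was divided by its lowest non-zero value, which gave whole reads for all values within 0.001 reads. Genes with 10 or more reads in at least 3 of the 6 ovary libraries were tested with limma 3.58.1 (R 4.3.3, moderated test with an intensity trend) on log2(normalized reads + 1), so fold changes of low genes are understated. P-values were adjusted over all 18547 genes by Benjamini-Hochberg. A gene passed at an adjusted p below 0.05, and a log2 fold change above 1 or below -1 was added where stated. Alternatives were edgeR 4.0.16, DESeq2 1.42.0 and voom on the recovered reads, other pseudocounts, filters and scaling, a replicate block, and each ovary left out in turn. In simulated data on 18398 genes, limma recovered 83 of 100 genes changed 4-fold and 25 of 100 changed 1.5-fold, with 17 false calls. The false calls were a larger share of all calls than the limit of 0.05. The simulation gave each gene the same dispersion in both genotypes, so it held no ovary that stands apart.

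Named genes were *Zfp36l2*, *Zfp36*, *Zfp36l1*, *Elavl1*, *Elavl2* and *Lhcgr*, the 15 highest and 15 lowest log2 fold changes among passed genes with a mean of at least 50 normalized reads in the higher genotype and no overlap, the 3 highest and 3 lowest clone-named genes, the 10 smallest p-values in each direction, and the members of 35 gene lists that passed (the 2 smallest p-values where none did); 1 gene under this rule is not reported here. The members and lists were chosen with earlier results of these data known. The 3′UTR sequences and positions come from GENCODE M21 (GRCm38).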

Additional observations from a re-analysis of the deposited data

How the results depend on the processing

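With all 6 ovaries 227 genes passed upwards and 65 downwards, and 135 and 42 with the fold limit. DESeq2 on the recovered reads gave 810 and 306, and 286 and 121 with the fold limit. A filter of 50 reads in all 6 libraries, which tested 13748 genes, gave 147 and 37, and 66 and 16. Leaving out 1 ovary gave 28 to 276 upregulated and 3 to 136 downregulated genes, and 26 to 117 and 3 to 72 with the fold limit. The cause of these shifts was not tested. With edgeR, voom, TMM scaling, pseudocounts of 0.5 and 5 and no filter, all 4 counts lay within 1.5 times. The replicate numbers of the labels are shared by the genotypes, but nothing in the labels says that they pair the animals. The animal numbers of same-numbered ovaries were consecutive for replicates 1 and 3 and not for replicate 2. The paper used wild-type littermates as controls and does not name pairs of ovary donors. The deviations of same-numbered ovaries correlated at 0.377, 0.210 and 0.0751, and 5 of the 6 ovaries correlated best with their own number. With the replicate number as a block, 407 genes passed upwards and 126 downwards, 185 and 80 with the fold limit, and these included 222 of the 227 and 63 of the 65. The log2 fold change of *Lhcgr* turned from -0.14 to 0.067 with DESeq2 and 0.064 with edgeR, and ranged from -0.64 to 0.61 with 1 ovary left out. The ranges were -0.024 to 0.091 for *Elavl1* and -0.048 to 0.12 for *Hey1*. No other gene given with a log2 fold change or an adjusted p changed direction. *Foxl2*, *Zp3*, *Cyp17a1*, *Ihh* and *Sycp1*, given by their values only, were not followed in this way. *Cyp17a1* and *Ihh* were both lowest in L2-fKO ovary 2. Depth limits the genes with few reads, such as *Cdk5r2*, *Pabpn1l* and *AF366264*, whose ratios carry wide counting intervals.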

Other observations

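The following single genes of immune signaling stood in none of the lists. They were chosen after their values were seen, and how many such genes were tested or passed was not counted. *Il1r1*, the signaling receptor of interleukin-1, had 1487, 1643 and 1577 in wild-type and 2854, 3355 and 2848 in L2-fKO ovaries (log2 fold change 0.94 ± 0.088, adjusted p = 0.00529). *Il1r2*, its decoy receptor, had 41.4, 43.5 and 61.5 in wild-type and 139, 182 and 132 in L2-fKO ovaries (log2 fold change 1.62 ± 0.24, adjusted p = 0.0241), while the shared subunit gene *Il1rap* had 882, 839 and 802 in wild-type and 814, 799 and 754 in L2-fKO ovaries (log2 fold change -0.09 ± 0.085, adjusted p = 0.628). *Cd55*, which protects cells from complement, had 1935, 2129 and 2007 in wild-type and 4597, 8196 and 4878 in L2-fKO ovaries (log2 fold change 1.49 ± 0.20, adjusted p = 0.0193), with L2-fKO ovary 2 highest. *Tnfsf10*, the death ligand TRAIL, had 277, 293 and 282 in wild-type and 613, 643 and 510.2 in L2-fKO ovaries (log2 fold change 1.04 ± 0.12, adjusted p = 0.0119), and the chemokine gene *Cxcl12* had 4412, 4501 and 4611 in wild-type and 5924, 6083 and 5825 in L2-fKO ovaries (log2 fold change 0.40 ± 0.059, adjusted p = 0.0250). *Stat6*, which transmits interleukin-4 signals, had 2560.2, 2464 and 2476 in wild-type and 3532, 3148 and 3544 in L2-fKO ovaries (log2 fold change 0.44 ± 0.072, adjusted p = 0.0316). *Il1r1* passed with any 1 ovary left out; the others that passed did so without L2-fKO ovary 2 and not without a wild-type ovary, and *Il1r2*, *Cxcl12* and *Stat6* also not without L2-fKO ovary 1 or 3.

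Some genes of other functions, chosen in the same way, also passed. *Cox4i2*, a subunit form of cytochrome c oxidase, had 365, 499.7 and 510.1 in wild-type and 1671, 2588 and 1996 in L2-fKO ovaries (log2 fold change 2.18 ± 0.19, adjusted p = 0.00427), and passed with any 1 ovary left out. *Hmox1*, which breaks down heme, had 1331, 1412 and 1543 in wild-type and 2903, 2840.1 and 2340.1 in L2-fKO ovaries (log2 fold change 0.91 ± 0.10, adjusted p = 0.0111) and did not pass without a wild-type ovary. The cation channel gene *Trpa1* had 13.4, 14.2 and 22.9 in wild-type and 79.6, 112 and 61.5 in L2-fKO ovaries (log2 fold change 2.25 ± 0.33, adjusted p = 0.0243), and did not pass without a wild-type ovary or L2-fKO ovary 1. *Has3*, a hyaluronan synthase, fell from 386, 287 and 297 to 148, 166 and 136 normalized reads (log2 fold change -1.10 ± 0.17, adjusted p = 0.0267), and *Rln3*, of the relaxin family, from 509, 469.6 and 435 to 224, 226 and 194 (log2 fold change -1.13 ± 0.13, adjusted p = 0.0102); neither passed without a wild-type ovary, and *Has3* also not without L2-fKO ovary 1 or 3. *Trim30a*, an interferon-inducible gene, had 488, 471 and 429 in wild-type and 917, 982 and 943 in L2-fKO ovaries (log2 fold change 1.03 ± 0.093, adjusted p = 0.00448) and passed with any 1 ovary left out.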
